A study of Mus musculus with 41 samples.

Results

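The expression of 54 mouse genes was compared between the 8 mice labelled as carrying the P nanomesh for 6 weeks and the 6 mice labelled as sham at 6 weeks, which are 14 of the 41 mice of the series. All were female NSG mice, a strain that lacks mature T, B and natural killer cells and still has neutrophils, macrophages and dendritic cells of impaired function. P is a degradable electrospun mesh of a copolymer of L-lactic acid and ε-caprolactone, placed under the skin of the abdomen without added cells, and the sham mice had the operation with no mesh. RNA came from the explanted tissue, which the labels call skin. According to the study this was tissue close to the mesh, since extracting cells from inside the mesh was not feasible. The ages of the mice were not given in the sources used here. The expression level of a gene in a mouse is given throughout as the threshold cycle (Ct) of 18S ribosomal RNA minus the Ct of the gene, a log2 scale on which 1 unit is a doubling at full PCR efficiency and a more negative number is less RNA. Levels of different genes come from different assays and were not compared with each other.

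A material placed in tissue is first coated with protein and then met by neutrophils and monocytes, which are drawn in by CC and CXC chemokines. Macrophages follow, and fibroblasts later lay down collagen under the control of TGF-beta, while matrix metalloproteinases (MMPs) cut the matrix and tissue inhibitors of metalloproteinases (TIMPs) hold them in check. Vessels grow in along with this, under VEGF, PDGF, FGF and angiopoietin signals. The 54 genes cover these steps.

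Mice 52 and 2356, both with P, need their own mention. Mouse 52 gave no Ct for 31 of the 54 genes, and its 23 detected genes ranged from -12.28 to -4.25 relative to the sham median (log2), while its 18S Ct was 7.79, the highest of the 14, against 6.20 to 7.14 in the other mice. The deposited fold changes of mouse 2356, labelled as 6 weeks, lay within 0.01 (log2) of those calculated against the 1 week sham mice in 49 genes, and against the 6 week sham mice in 1. The study describes groups of equal size, while the labels give 8 P mice at 6 weeks and 6 at 1 week. The week of mouse 2356 is therefore in doubt, and it was kept as labelled. The calls, the counts and the called genes are given with and without mice 52 and 2356. Only 2 other values were undetected, *Ccl4* in P mouse 121 and *Il10* in sham mouse 123. The Ct of 18S ran from 6.20 to 7.79 in P and from 6.26 to 6.83 in sham, a shift of 0.29 cycles (exact Mann-Whitney U test, two-sided, p = 0.081). The fibroblast collagen *Col1a1* was detected in all 14 mice, and the epithelial genes *Cdh1* and *Fgfr3* in 13, without mouse 52. Detection cannot check the label skin, because 23 of the 54 genes were detected in all 14 mice and 52 in all mice other than mouse 52. *Cdh1* was much lower in P mouse 53 (-18.99) and in sham mice 2346 (-14.03) and 2277 (-13.97) than in the other 10 (-10.54 to -6.90), and the part of a differing share of epithelium in the results was not tested. In whole tissue, fewer cells of a type and less RNA per cell cannot be told apart.

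With 18S as the reference and all 14 mice, *Timp2* and *Timp3* were called lower in P and no gene was called higher. Both encode inhibitors of MMPs, *Timp3* being the one that binds to the matrix. They are the 2 of 54 genes (3.70%) called by a Mann-Whitney U test (exact, two-sided) at a Benjamini-Hochberg adjusted p below 0.05. At the threshold in the statistics section of the study, an unadjusted p of 0.0513 or less, 14 of 54 genes (25.9%) were lower in P and 0 were higher. Besides the called pair these were *Timp4*, *Tgfb2*, *Tgfb3*, *Tgfbr1*, *Vegfa*, *Pdgfa*, *Fgf1*, *Ctgf*, *Ang1*, *Itgb1*, *Cdh2* and *Ccl11*, that is matrix, growth factor and adhesion genes and a single chemokine. The shift, which is the Hodges-Lehmann estimate of P minus sham, was below 0 in 43 genes and above 0 in 11, with a median of -0.83.

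The TIMP genes are given first, as the family that holds both called genes. The upstream windows of its 4 members are printed so that called and uncalled genes can be set side by side at the level of sequence. Each runs from 250 bases before to 50 bases after the start of the gene in RefSeq (GRCm38.p6), 5′ to 3′ on the strand of the gene, with the GC box GGGCGG on either strand in capitals.
Timp1 at chrX:20869916-20870215, plus strand: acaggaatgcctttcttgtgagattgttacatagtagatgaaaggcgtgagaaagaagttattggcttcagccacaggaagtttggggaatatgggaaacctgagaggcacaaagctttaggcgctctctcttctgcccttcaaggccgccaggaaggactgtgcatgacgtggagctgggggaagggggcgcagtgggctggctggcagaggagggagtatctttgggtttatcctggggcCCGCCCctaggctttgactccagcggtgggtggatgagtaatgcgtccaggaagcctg
Timp2 at chr11:118355362-118355661, minus strand: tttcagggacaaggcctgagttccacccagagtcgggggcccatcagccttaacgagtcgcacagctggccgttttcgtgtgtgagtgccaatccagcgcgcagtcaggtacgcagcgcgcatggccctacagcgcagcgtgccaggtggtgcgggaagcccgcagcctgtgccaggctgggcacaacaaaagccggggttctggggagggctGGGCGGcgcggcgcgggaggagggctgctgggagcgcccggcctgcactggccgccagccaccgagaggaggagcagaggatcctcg
Timp3 at chr10:86300162-86300461, plus strand: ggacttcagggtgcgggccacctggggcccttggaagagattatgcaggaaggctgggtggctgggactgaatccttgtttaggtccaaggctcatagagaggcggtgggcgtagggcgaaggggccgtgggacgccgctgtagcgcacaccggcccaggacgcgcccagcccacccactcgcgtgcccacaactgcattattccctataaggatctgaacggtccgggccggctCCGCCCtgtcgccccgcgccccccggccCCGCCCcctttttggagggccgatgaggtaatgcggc
Timp4 at chr6:115252156-115252455, minus strand: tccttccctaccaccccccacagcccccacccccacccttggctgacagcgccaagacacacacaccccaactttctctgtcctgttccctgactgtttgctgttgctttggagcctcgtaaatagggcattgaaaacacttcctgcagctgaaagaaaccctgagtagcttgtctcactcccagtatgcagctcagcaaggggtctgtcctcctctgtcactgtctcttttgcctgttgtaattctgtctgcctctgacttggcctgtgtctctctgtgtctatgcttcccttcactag

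The windows of *Timp2* and *Timp3* were 68.7% and 67% G and C, with 25 and 24 CG pairs, while those of *Timp1* and *Timp4* were 55% and 53.3%, with 8 and 2. The median over the windows of all 27025 genes was 52.7%. The GC box occurred once in *Timp1* and *Timp2*, 2 times in *Timp3* and not in *Timp4*, and it occurred in 35.9% of all windows. Neither the AP-1 site TGANTCA (7.93% of all windows) nor the TATA box TATAAA (14.2%) occurred in these 4 windows on either strand. These letters describe the windows only.

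*Timp2* lay between -6.42 and -4.03 in sham, with a median of -5.69. In P it was -15.00 in mouse 52 and between -8.36 and -6.21 in the other 7, with a median of -7.05. Of the 8 P mice, 7 were below the lowest sham mouse, and mouse 437 alone lay inside the sham range. The shift was -1.70 (95% confidence interval -3.30 to -0.62), or 3.25-fold lower (n = 8 and 6, exact Mann-Whitney U test, p = 0.00133, adjusted p = 0.036).

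*Timp3* lay between -6.58 and -4.42 in sham, with a median of -6.05. In P it was -17.15 in mouse 52, -10.33 in mouse 53, -8.38 in mouse 2307 and between -7.71 and -6.57 in the other 5. Again 7 of 8 P mice were below the lowest sham mouse, and mouse 437 lay just above it. The shift was -1.84 (-4.65 to -0.52), or 3.59-fold lower, with the same exact p = 0.00133 and adjusted p = 0.036. Because both genes had a single mouse out of order, these p-values are just above the smallest that 8 against 6 mice allow, 0.000666.

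The call of both genes needed nearly every mouse. Without mouse 52 the shifts were -1.39 for *Timp2* and -1.41 for *Timp3* (n = 7 and 6, exact p = 0.00233, adjusted p = 0.0629), and no gene was called, with 14 genes still at the study threshold. Without mouse 2356 they were -1.77 and -1.99, with the same exact p-values, and again no gene was called, with 18 at the threshold. Without both mice they were -1.39 and -1.60 (n = 6 and 6, exact p = 0.00433, adjusted p = 0.117), with 0 genes called and 12 at the threshold. Of the 14 genes 11 were among these 12, *Il4ra* being added, while *Timp4* and *Tgfbr1* (exact p = 0.0649 each) and *Ang1* (exact p = 0.0931) were not, and all 14 kept shifts below 0. With 7 against 6 mice, complete separation of 1 gene gives an adjusted p of 0.0629 unless other genes separate too, so a single gene cannot be called at that size. Leaving out any other mouse also ended the call, except P mouse 437, without which 10 genes were called, and sham mouse 123, without which 8 were. *Timp2* and *Timp3* were among the genes called in both cases.

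The other MMP and TIMP genes had shifts on both sides of 0. *Timp4* lay between -9.83 and -6.27 in sham and between -16.61 and -8.66 in P, with a shift of -1.95 (-4.31 to -0.22, exact p = 0.020, adjusted p = 0.0997). Its groups overlapped, with 5 of 8 P mice below the lowest sham mouse. *Timp1*, the inhibitor known for its induction by inflammatory signals, had a shift of 0.35 (-1.81 to 3.45, adjusted p = 0.60 by the exact test). Its P values were split, with mice 2356 (-7.60), 2307 (-7.79), 2267 (-10.17) and 53 (-10.39) above the highest sham mouse (-10.40) and mouse 438 (-12.90) below the lowest (-12.68). *Mmp9*, the gelatinase of neutrophils and macrophages, was also split, with mouse 2356 (-11.60) inside the sham range here. It was -5.67 in mouse 2307, -7.84 in mouse 53 and -8.16 in mouse 2267, against -13.95 to -10.75 in sham, and between -14.00 and -11.60 in the other 4 P mice in which it was detected. Its shift of 1.30 (-0.87 to 5.97) had an adjusted p of 0.53 by the exact test. The gelatinase *Mmp2* (-1.30) and *Mmp19* (0.12) had adjusted p-values of 0.26 and 0.98 by the exact test. In all, 3 of the 8 matrix turnover genes were at the study threshold, all lower and all TIMPs, with a median shift of -0.996 over the list.

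**Figure D1:**
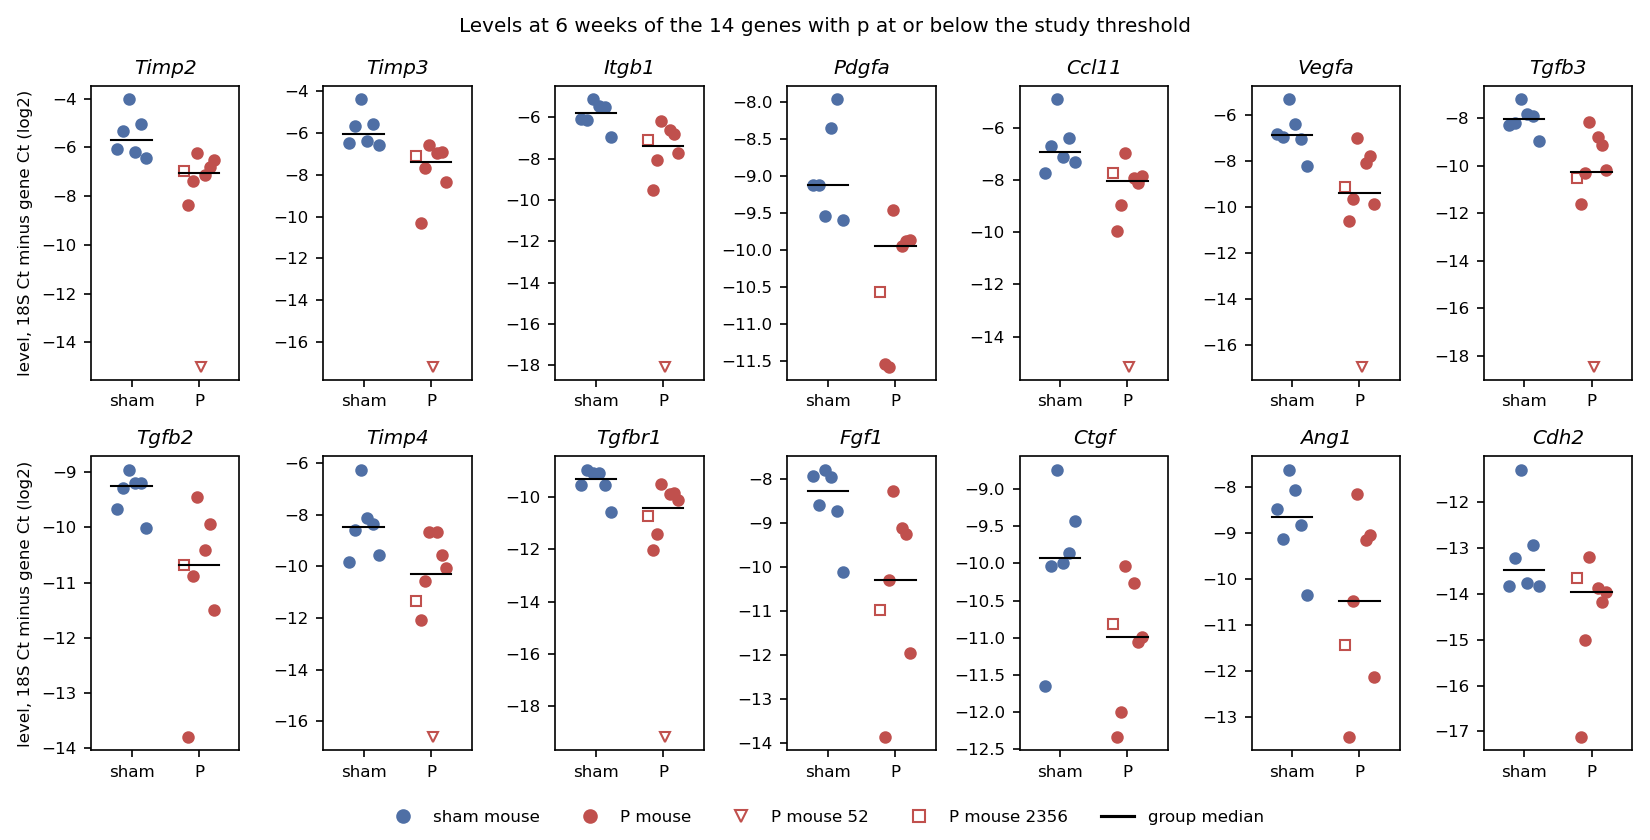
Levels (18S Ct minus gene Ct, log2) of the 14 genes at the study threshold, one point per mouse, with 6 sham and 8 P mice, lines at the medians and open symbols for mice 52 and 2356. In every panel most P mice sit under the sham median, and in *Timp2* and *Timp3* 7 of 8 sit under every sham mouse, while the scales are set by mouse 52 where it was detected.

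TGF-beta drives fibroblasts to make matrix, and 3 of the 4 genes of its list were at the study threshold, all lower. The ligand *Tgfb3* ran from -8.94 to -7.21 in sham, and from -11.61 to -8.17 in P apart from mouse 52 (-18.46), with a shift of -2.07 (-3.71 to -0.59, exact p = 0.0080, adjusted p = 0.055). The ligand *Tgfb2* ran from -10.01 to -8.96 in sham and from -13.80 to -9.45 in 7 P mice, with a shift of -1.31 (-2.54 to -0.28, exact p = 0.0082). For these ligands 6 of 8 and 5 of 7 P mice were below the lowest sham mouse. *Tgfbr1*, the type I receptor, had a shift of -1.04 (exact p = 0.020), and *Tgfb1*, the ligand most abundant in platelets and macrophages, had a shift of -0.55 (-2.36 to 0.56, exact p = 0.41). The median shift of the list was -1.18.

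The 9 growth factor and angiogenesis genes all had shifts below 0, from -2.54 to -1.01, and 5 were at the study threshold. *Vegfa*, the main signal for new vessels, had the lowest shift of all 54 genes when all mice were kept. Without mice 52 and 2356 *Cxcl10* (-2.10) was lower than *Vegfa* (-2.05). *Vegfa* ran from -8.21 to -5.33 in sham, and was -16.94 in mouse 52 and -10.61 to -7.00 in the other 7 P mice. Its shift with all mice was -2.54 (-4.35 to -0.80, exact p = 0.0080, adjusted p = 0.055). Mice 437, 2267 and 121 lay inside the sham range and the other 5 below it. *Pdgfa*, a mitogen for fibroblasts, ran from -9.60 to -7.96 in sham and from -11.58 to -9.47 in 7 P mice, 6 of them below the lowest sham mouse, with a shift of -1.48 (-2.46 to -0.34, exact p = 0.00466). *Fgf1* (-1.65), *Ang1* (-1.58), whose product steadies vessels through the Tie2 receptor, and *Ctgf* (-1.04), a matrix protein downstream of TGF-beta, had exact p-values of 0.0221, 0.0513 and 0.0221. *Ang2* had the highest shift of the list, -1.01 (-2.27 to 0.13, exact p = 0.073).

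The 5 collagen genes all had shifts below 0, from -1.004 for *Col3a1* to -0.74 for *Col6a3*, and none was at the study threshold (exact p from 0.18 to 0.41). *Col3a1*, a fibrillar collagen of young scar, was -12.01 in mouse 52 and ran from -5.66 to -2.13 in the other P mice, against -4.65 to -1.69 in sham, so that 4 of 8 P mice lay below the lowest sham mouse and the others inside the sham range. *Col6a3*, a chain of the beaded collagen VI, ran from -14.03 to -9.71 in P apart from mouse 52, against -11.70 to -7.49 in sham. Without mouse 52 the median collagen shift was -0.56, and the interval of *Col3a1* with all mice, -3.17 to 0.47, shows how large a difference in either direction these mice leave possible.

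Among the 6 adhesion genes *Itgb1* and *Cdh2* were at the study threshold. *Itgb1*, the beta1 integrin through which cells hold collagen and fibronectin, ran from -6.94 to -5.13 in sham, and from -9.51 to -6.19 in P apart from mouse 52 (-18.07). Its shift was -1.64 (-3.99 to -0.67, exact p = 0.00466, adjusted p = 0.055), with 5 of 8 P mice below the lowest sham mouse. *Cdh2*, N-cadherin, had a shift of -0.84 (exact p = 0.0513, adjusted p = 0.198). *Vcam1*, an adhesion molecule of activated endothelium, had the shift nearest to 0 of the list, -0.08 (-2.39 to 1.53).

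**Figure D2:**
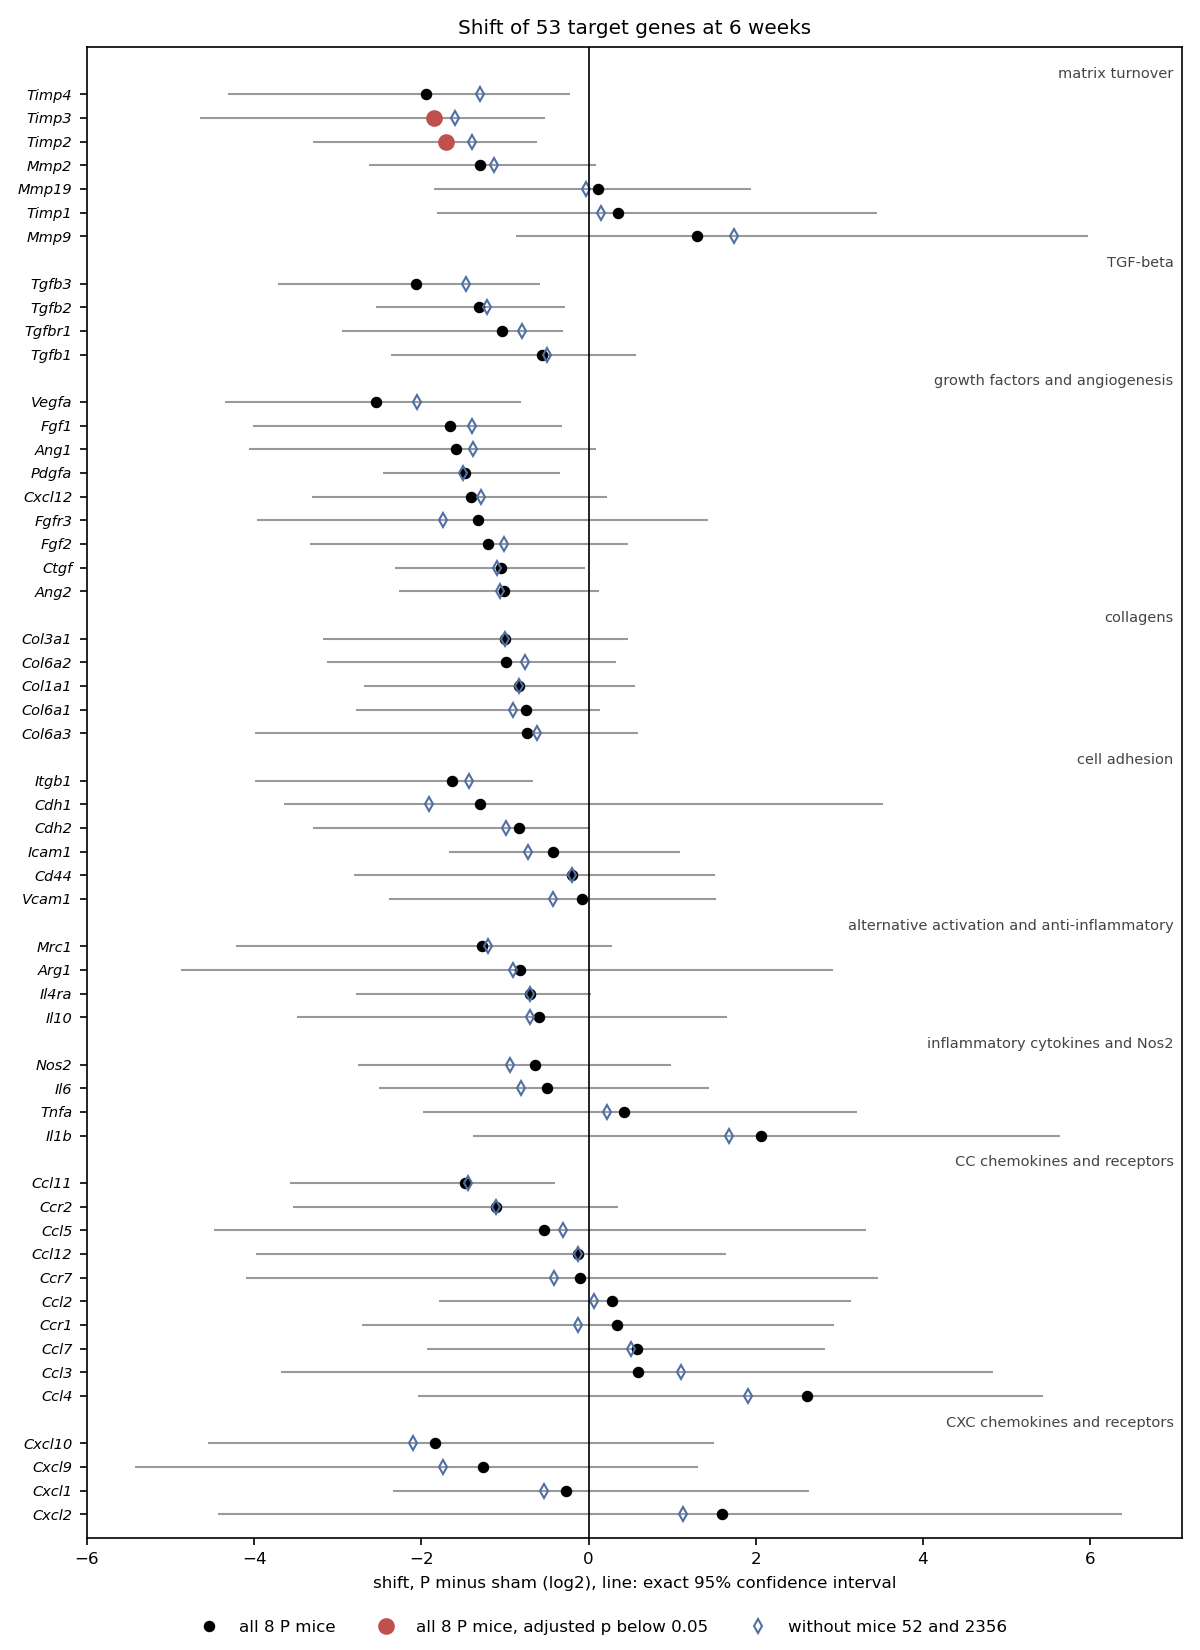
Shift of each of 53 genes (P minus sham at 6 weeks, log2) with its exact 95% confidence interval, ordered by list, with the 2 genes at an adjusted p below 0.05 in red and the shifts without mice 52 and 2356 as open diamonds. Shifts are mostly below 0 in the matrix, TGF-beta, growth factor, collagen and adhesion lists and lie on both sides of 0, with wide intervals, in the chemokine and cytokine lists.

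Of 22 inflammatory and macrophage genes in the 4 remaining lists, *Ccl11* alone was at the study threshold. *Ccl11*, eotaxin, which draws eosinophils, ran from -7.72 to -4.89 in sham and from -9.96 to -6.95 in P apart from mouse 52 (-15.15), with a shift of -1.48 (-3.57 to -0.40, exact p = 0.0080, adjusted p = 0.055). The other CC chemokines and receptors spread widely, and the median shift of the 10 genes was 0.09. *Ccl4*, which draws monocytes and natural killer cells, had the highest shift of all 54 genes, 2.61, with an interval of -2.04 to 5.43 (exact p = 0.093). It ran from -17.40 to -12.03 in 6 P mice and from -19.20 to -16.28 in 5 sham mice, and was -9.99 in sham mouse 408, above every P mouse.

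The neutrophil chemokine *Cxcl2* ran from -23.39 in mouse 121 to -11.84 in mouse 2307, against -19.65 to -13.01 in sham, with a shift of 1.59 (-4.43 to 6.38). *Cxcl10*, an interferon-induced chemokine, had the lowest shift of its list, -1.83 (-4.55 to 1.51, exact p = 0.18). The inflammatory cytokine *Il1b* ran from -16.21 to -9.84 in 7 P mice and from -18.79 to -12.60 in sham, a shift of 2.07 (-1.38 to 5.63, exact p = 0.18), with mice 2356 and 2307 above the highest sham mouse. *Nos2*, which marks classically activated macrophages, had a shift of -0.64 (-2.76 to 0.98). Of the genes of alternative activation, the mannose receptor *Mrc1* had a shift of -1.27 (-4.21 to 0.28, exact p = 0.14), and the anti-inflammatory cytokine *Il10* had -0.59 (-3.49 to 1.65). All 4 genes of that list had shifts below 0 and none was at the study threshold.

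In most genes the P mice differed among themselves more than the sham mice did. The SD was larger in P than in sham in 42 of 54 genes, in 39 without mouse 52 and in 33 without mice 52 and 2356. The median SD over the genes was 2.56 in P, 1.47 in P without mouse 52, 1.36 without both mice and 1.11 in sham. This was not so in every list, since in the CXC chemokines the median SD was 2.12 in P and 2.40 in sham, and in the alternative activation genes it was 1.34 in P without mouse 52 and 1.78 in sham. Mice 2356 and 2307 stood high in inflammatory genes, at 6.42 and 5.57 above the sham median in *Il1b*, and at 5.94 and 6.37 in *Cxcl2*. Both were at the same time below the sham median in all 14 genes at the study threshold. The week of mouse 2356 is in doubt, as given above. Mice 53 and 438 were below the lowest sham mouse in all 14 of them, as mouse 52 was in the 8 it gave. Mouse 53 had *Mmp9* 5.06 above the sham median, and mouse 437 was below the lowest sham mouse in none of the 14 genes. One sham mouse, 408, was high in several chemokines too. In *Ccl4* it was 7.50 above the sham median and above P mice 2356 and 2307. In *Cxcl2* it was 5.20 above the sham median and below P mice 2356 and 2307. Another sham mouse, 401, was above the sham median in 51 of 54 genes.

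**Figure D3:**
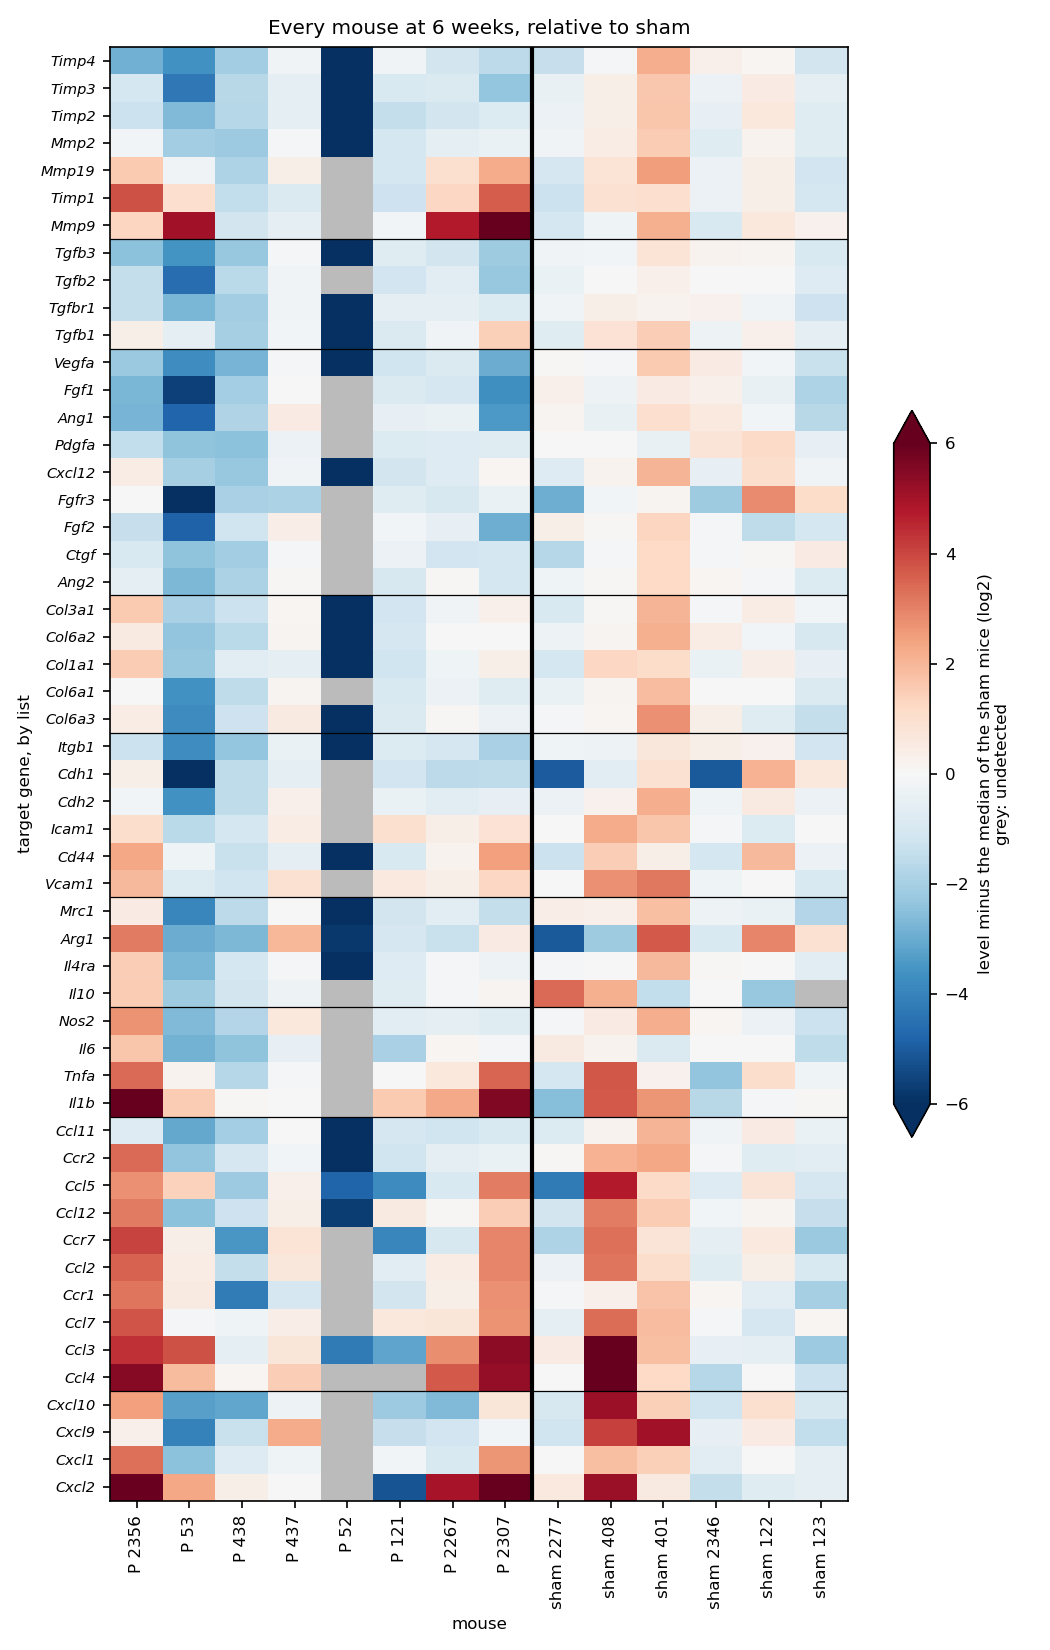
Level of each of 53 genes in each of the 8 P and 6 sham mice, minus the median of the sham mice (log2, colours end at 6 in either direction, grey where undetected), with genes by list. P mouse 52 is dark blue or grey throughout, and P mice 53 and 438 are blue in most genes. P mice 2356 and 2307 and sham mice 408 and 401 are red in most of the chemokine rows.

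*Mmp9* and *Timp2* can be set against each other within a mouse without any reference gene, a pair chosen after its values had been seen and given as a description. Relative to the sham median, the level of *Mmp9* minus that of *Timp2* was 8.30 in mouse 2307, 7.95 in mouse 53, 6.07 in mouse 2267 and 2.81 in mouse 2356. It was 1.50, 0.81 and 0.14 in mice 121, 438 and 437 and between -0.45 and 1.22 in the sham mice. So 5 of the 7 P mice in which both were detected were above every sham mouse and the other 2 inside the sham range. The count was lower with the other TIMPs tried, 4 of 7 for *Mmp9* minus *Timp3* and 3 of 7 for *Mmp9* minus *Timp1*, in which mouse 2356 (-2.75) was below every sham mouse. The pattern was not particular to *Mmp9*. For *Mmp2* minus *Timp2*, 6 of 8 P mice were above every sham mouse and 1 was below. For *Mmp19* minus *Timp2*, 5 of 7 were above and 0 below. The highest P values were smaller there, 1.21 and 3.14.

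The direction of the shifts depended on the reference, but the alternative to 18S was made of tested genes. Most of the 23 genes used were lower in P against 18S, and they included 8 of the 14 genes at the study threshold. Subtracting their median raises the shifts largely by construction. The values below therefore cannot tell whether 18S or the genes differed between the groups. When each mouse was set against the median of the 23 genes detected in all 14 mice, the median shift moved from -0.83 to 0.26, by 1.08 in all, and 37 genes had shifts above 0 instead of 11. No gene was then called, and no gene was lower at an unadjusted p below 0.05. *Mmp9* (1.82, exact p = 0.014), *Ccl2* (1.10, exact p = 0.014), *Ccl12* (1.20, exact p = 0.020), *Mmp19* (1.11, exact p = 0.0221), *Ccl7* (1.63, exact p = 0.0221) and *Il1b* (3.41, exact p = 0.035) were higher at that level, which is 11.1% of the 54 genes, all with an adjusted p of 0.24 or more. Of the 14 genes lower against 18S, 12 still had shifts below 0, among them *Timp2* (-0.26), *Timp3* (-0.81, exact p = 0.059) and *Vegfa* (-0.90, exact p = 0.059), while *Tgfbr1*, *Ctgf* and the collagens had shifts above 0. Without mouse 52 but over the same 23 genes the median shift was 0.27, with the same 6 genes higher and none lower at that level. The result depended on which genes form the reference. Without mouse 52, and over the 52 genes detected in all other mice, the median shift was -0.05. As these are nearly all of the 54 genes, a median shift near 0 is largely built in. *Timp2* (-0.68), *Timp3* (-1.03), *Ccl11* (-0.64) and *Vegfa* (-1.37) were then lower and *Il1b* (3.16) higher at an unadjusted p below 0.05 by the exact test, 5 of 54 genes (9.26%), and none was called.

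**Figure D4:**
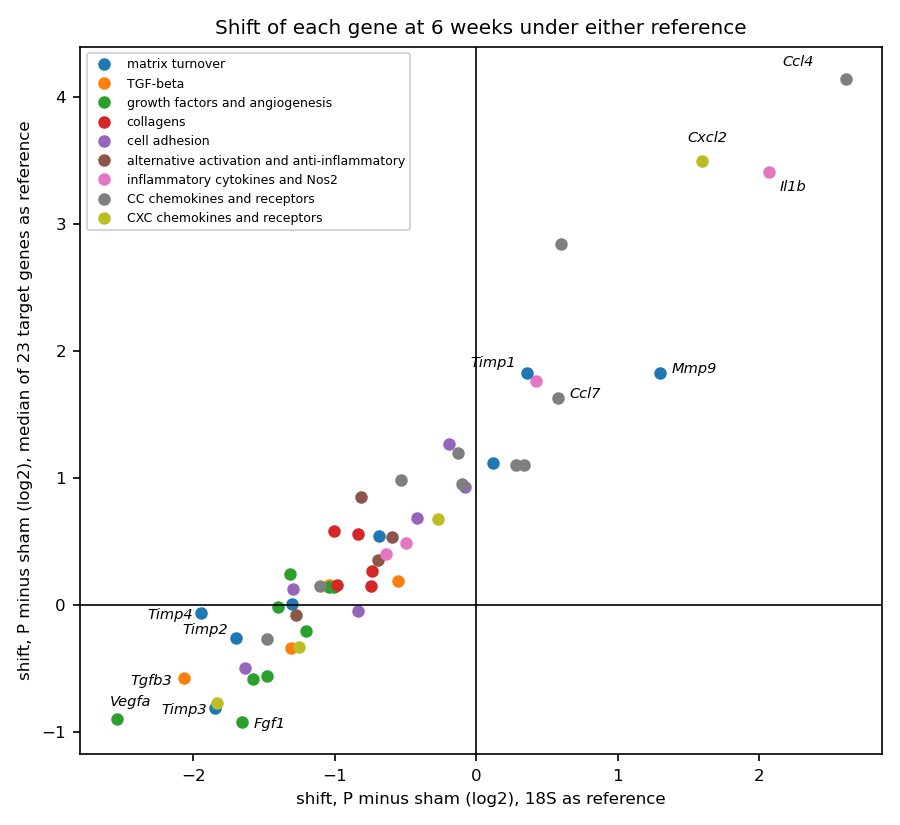
Shift of each gene (P minus sham at 6 weeks, log2) with 18S as the reference on the x axis and the median of 23 target genes on the y axis, coloured by list. All 54 points lie above the line of equal shifts, by a median of 1.14, so that 43 genes are below 0 against 18S and 17 against the panel median. The 23 genes are themselves among those tested and mostly lower against 18S, so a move above the line is largely built in.

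Animal numbers fall into a series below 1000 (5 P and 4 sham mice) and a series above 2000 (3 P and 2 sham mice), and what the series stand for was not given in the sources used here. In the series below 1000 the median shift was -1.85, with 52 genes below 0, and it was 0.38 in the series above 2000, with 25 below 0. *Timp2* and *Timp3* had shifts of -2.25 and -2.36 in the first series (n = 5 and 4, exact p = 0.032, adjusted p = 0.17) and of -0.67 and -0.65 in the second, where 3 against 2 mice allow no exact p below 0.2 and none was calculated. When mice were permuted only within their series, *Timp2* and *Timp3* had an adjusted p of 0.064 by the exact test and no gene was called. *Mmp9* had shifts of -0.80 and 5.72 in the 2 series, and *Vegfa* of -2.67 and -2.54. Mice 52 and 2356 are split between the series, the one being in the first and the other in the second.

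At 1 week, with 6 P and 7 sham mice that share no mouse with those at 6 weeks, no gene was called (0%), and 3 of 54 (5.56%) were at the study threshold, all lower in P. These were *Vegfa* (-1.13, exact p = 0.0082), *Pdgfa* (-1.10, exact p = 0.035) and *Tgfb3* (-0.63, exact p = 0.0513), each of which was also at the threshold at 6 weeks. All 14 genes at the threshold at 6 weeks had shifts below 0 at 1 week as well. The median shift was -0.10 at 1 week, with 26 genes above 0, and the CC chemokine list had 9 of 10 genes above 0 there against 5 at 6 weeks. A limma model with a term for P, a term for week and their interaction asked whether the 2 weeks differed in P minus sham, and in it no gene was called and none had an unadjusted p below 0.05. The difference was more negative at 6 weeks in 50 of 54 genes, in 49 without mouse 52 and in 24 with the panel median as the reference, and the genes with the smallest p were *Cxcl10* (-2.77 ± 1.81, SE, adjusted p = 0.75 in limma), *Ccl12* (-2.42 ± 1.67) and *Tgfb3* (-2.10 ± 1.46). Without mouse 52 these were -2.77 ± 1.80, -1.67 ± 1.47 and -1.02 ± 0.80 (SE).

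**Figure D5:**
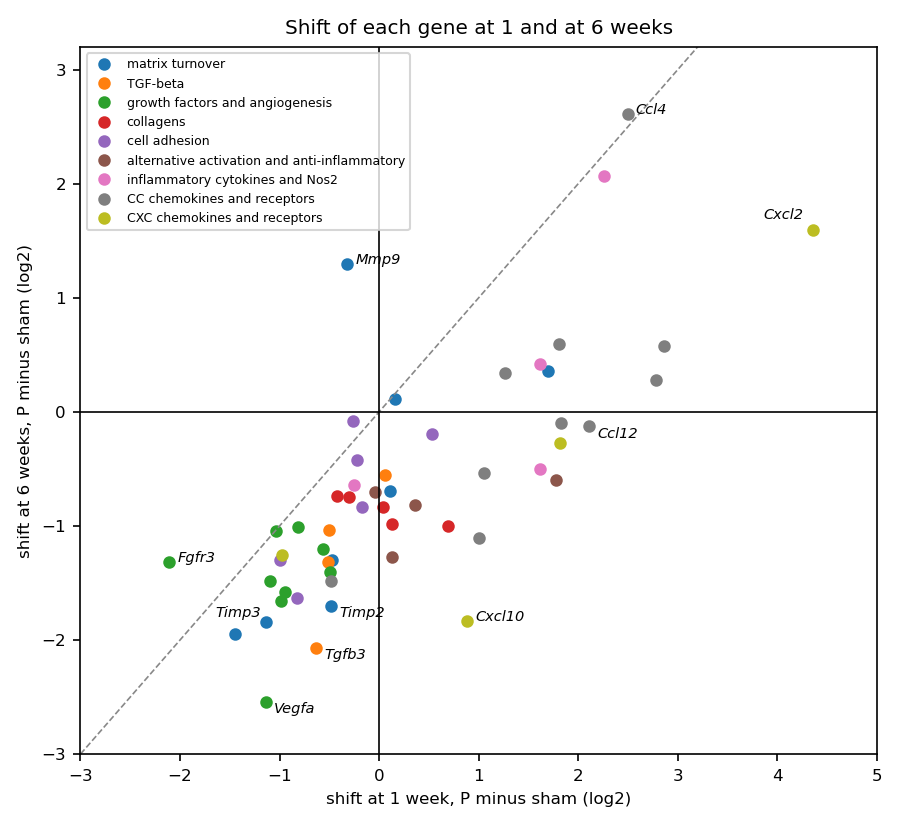
Shift of each gene (P minus sham, log2, 18S as reference) at 1 week on the x axis and at 6 weeks on the y axis, coloured by list, with the line of equal shifts dashed. Growth factor, TGF-beta and TIMP genes other than *Timp1* lie mostly in the lower left. Most genes of every list, chemokines included, lie to the right of the line. *Mmp9* is below 0 at 1 week and above 0 at 6 weeks, where its interval includes 0.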

How the data were processed

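RNA was reverse transcribed, preamplified and quantified by TaqMan qPCR on Fluidigm arrays. The authors deposited a table of Ct values (not normalized, in which undetected wells are written as 999 or left blank) and a table of linear fold change ratios, calculated by the authors against the sham controls with 18S as the reference. One Ct was given per assay and mouse. Ct values have no read depth, and with a single Ct the measurement error of a well could not be separated from the spread between mice.

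Groups were taken from the deposited titles, in which every mouse has its own number. The p-values take the mouse as the unit. The level was the 18S Ct minus the gene Ct, and 33 undetected values (30 written as 999 and 3 with no value) were left out. P and sham at 6 weeks were compared per gene by a Mann-Whitney U test (exact, two-sided), with at least 4 detected mice per group, and p-values were adjusted by the Benjamini-Hochberg method over all 54 genes. Shifts are Hodges-Lehmann estimates with exact 95% confidence intervals. The interaction of P and week was fitted in limma over 27 P and sham mice. Named were the genes called or at the study threshold, the highest and lowest shift of each list, and the 3 interaction genes with the smallest p. Other genes were named after their values had been seen. A gene of the matrix turnover list was kept in all counts and adjustments and is not reported here on its own. The members and the 9 gene lists were chosen with earlier results of these data known. Alternatives were another reference, the treatment of undetected values, a Ct limit of 25, an exact permutation test of the mean, limma, the animal number series, the deposited fold changes, other thresholds and leaving out mice. The test was checked on simulated data. Symbols were matched to RefSeq (GRCm38.p6), 50 directly and 4 by another symbol, and 32 of the 54 genes had a promoter window. The first listed start was used. The tools were scipy 1.17.1, numpy 2.4.6 and pandas 2.3.3 for the tests (Python 3.11.15), limma 3.58.1 (R 4.3.3) for the interaction, and matplotlib 3.10.9 for the figures.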

Additional observations from a re-analysis of the deposited data

Results flagged for a closer look

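Values that stood apart within their group by Dixon's test at the 95% level were found in 15 of 56 groups (28 named genes in P and in sham). The same mice give every group, so the groups are not independent. The count therefore cannot be set against the 1 in 20 expected of a single test. In P, mouse 52 was the low value in 11 of the 15, relative to the sham median by -9.31 in *Timp2*, -8.81 in *Tgfb1*, -10.41 in *Tgfb3*, -9.87 in *Tgfbr1*, -8.15 in *Timp4*, -11.10 in *Timp3*, -10.05 in *Vegfa*, -12.28 in *Itgb1*, -8.24 in *Ccl11*, -10.32 in *Mrc1* and -8.29 in *Col3a1*. In sham, mouse 408 was high in *Ccl4* (7.50) and *Cxcl2* (5.20), mouse 401 was high in *Cdh2* (2.19) and mouse 123 was low in *Tgfbr1* (-1.26).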

How the results depend on the processing

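No paired analysis was possible because each mouse has a number of its own and the groups share none. The planned use of *Gapdh* as the reference was not run, since no *Gapdh* assay is among the rows used here.

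The number of called genes, 2, was 3 with undetected values ranked lowest (*Pdgfa* added) and 2 with a Ct limit of 25. It was 0 with the panel median, the exact permutation test of the mean, limma, permutation within the series, the series below 1000 alone, the deposited fold changes, without mice 52 and 2356, and with mouse 2356 counted at 1 week. It was 12 at an adjusted p below 0.1 and 12 at an unadjusted p below 0.05. Leaving out 1 mouse at a time gave 0 to 10. The number at the study threshold, 14, was 7 with the panel median, all higher, and 7 with limma, all lower, and 10 to 18 in the other planned settings. Leaving out 1 mouse at a time gave 12 to 18, and all of these were lower except *Ccl4* without sham mouse 408. The median shift of -0.83 was 0.26 with the panel median, -1.85 in the series below 1000, 0.38 in the series above 2000, and -1.04 to -0.48 without 1 mouse at a time. Alternatives chosen after seeing the data were leaving out mice 52, 2356 and 408 together (0 called, 9 at the threshold), the panel median over 52 genes without mouse 52 (0 called, 6 at the threshold) and the panel median over the same 23 genes without mouse 52 (0 called, 7 at the threshold, all higher, median shift 0.27). The interaction gave 0 called genes under every alternative run, leaving out each of its 27 mice included, with 0 to 2 genes at an unadjusted p below 0.05 in limma. The causes were not tested.

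Among the 28 named genes some directions turned. With the panel median the shifts were 0.14 for *Ang2*, 0.14 for *Ctgf*, 0.19 for *Tgfb1*, 0.15 for *Tgfbr1*, 1.20 for *Ccl12*, 0.54 for *Il10*, 0.40 for *Nos2*, 0.93 for *Vcam1*, 0.27 for *Col6a3* and 0.58 for *Col3a1*. With the panel median over 52 genes and without mouse 52 they were 0.10 for *Tgfbr1*, 0.56 for *Ccl12*, 0.40 for *Il10*, 0.26 for *Nos2*, 0.69 for *Vcam1* and 0.28 for *Col3a1*. Over the same 23 genes without mouse 52 they were 0.14 for *Ang2* and *Ctgf*, 0.17 for *Tgfb1*, 0.25 for *Tgfbr1*, 0.96 for *Ccl12*, 0.54 for *Il10*, 0.40 for *Nos2*, 0.024 for *Mrc1*, 0.93 for *Vcam1*, 0.23 for *Col6a3* and 0.52 for *Col3a1*. In the series below 1000 they were -0.80 for *Mmp9*, -0.34 for *Cxcl2*, -0.54 for *Il1b* and 0.27 for *Il10*. In the series above 2000 they were 0.86 for *Tgfb1*, 2.11 for *Ccl12*, 1.79 for *Cxcl10*, 1.36 for *Vcam1* and 0.99 for *Col3a1*. Without mice 52, 2356 and 408 they were 0.16 for *Ccl12*, 0.012 for *Il10* and 0.33 for *Vcam1*. With the deposited fold changes they were 1.48 for *Ccl11* and 0.13 for *Ccl12*, because these, like *Ccl2*, were deposited as the reciprocals of the ratios calculated from Ct. Without 1 mouse at a time *Ccl12* ran from -1.07 to 0.16, *Il10* from -1.46 to 0.15 and *Vcam1* from -0.79 to 0.56.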
